A study of Bos taurus with 47 samples.

Results

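Bovine embryos made by in vitro fertilization (IVF) and collected at the 8-cell stage were compared with mature oocytes, the cells from which such embryos start. The comparison covered all genes with at least 10 normalized reads in at least 4 of the 8 libraries, which were 12770 of the 20526 genes in the table. The 8 libraries, 4 of IVF 8-cell embryos and 4 of oocytes, belonged to a series of 47 in 12 groups. The rule for genes used levels only and not the difference between the groups.

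The IVF 8-cell embryos came from oocytes matured in culture and fertilized with frozen semen of a Holstein bull. They were freed of cumulus cells, the somatic cells around the egg, by vortexing after fertilization. They then grew on a layer of bovine cumulus cells in SOFaa medium with serum and were taken on day 3 in pools of 20. The oocytes were at metaphase of the second meiotic division (MII) after culture in TCM199 medium, and they had met no sperm. The sources used here do not state the breed, genotype or age of the oocyte donors. The design text and the RNA protocol in the labels disagree on whether a stage had 3 or 4 pools, and the 4 libraries of each group were taken as 4 samples. Nothing in the labels ties a library to its own animal or culture, so p-values measure the spread between these pools only, which may be technical.

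The fully grown oocyte carries a store of maternal messenger RNA and makes almost no new transcripts. After fertilization this store is used and degraded while the embryonic genome is silent or nearly so. In cattle the main wave of embryonic transcription is known to begin at about the 8-cell stage, so that an embryo at this point holds remnants of the maternal store together with its own first transcripts.

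Genes carry Ensembl identifiers in the table, and 0 of the 20526 could be paired with a name here. Genes were therefore described in groups built from their values, with at most 2 identifiers printed in each direction. The oocyte label could not be checked against marker genes for the same reason, nor could cumulus cell markers. Recovered reads per library ran from 6413054 to 11306619 in IVF 8-cell embryos and from 8709911 to 14281462 in oocytes. The oocyte libraries resembled each other more closely, with a mean r to the rest of their group of 0.977 to 0.983 on the log2 scale, against 0.913 to 0.946 for the 8-cell libraries. Among the 8-cell pools, replicates 2 and 4 stood furthest from their group and in different ways. Fibroblast replicate 3 and IVF 2-cell replicate 3 also stood apart from their groups, and the levels and counts that rest most on them are also given without them.

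Between IVF 8-cell embryos and oocytes 4420 genes, or 34.6% of those tested, differed at an adjusted p under 0.05 (limma with Benjamini-Hochberg adjustment, n = 4 and 4). The genes called were divided almost equally, with 2193 higher in 8-cell embryos (17.2% of those tested) and 2227 lower (17.4%). The number lower was 1413 without oocyte replicate 1 and 1479 without oocyte replicate 4. The sizes of the changes were not alike in the 2 directions. Genes called higher had a median log2 change of 1.55, and the range from the 10th to the 90th percentile was 0.72 to 3.83. Genes called lower had a median of -1.08 and a range of -1.84 to -0.68. The median over all genes tested was -0.06.

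Losses were a smaller part of the called genes at each larger size of change. A change of at least 2-fold was reached by 1660 of the genes called higher (75.7%) and by 1288 of those called lower (57.8%). At 4-fold the counts were 796 higher (36.3%) and 155 lower (6.96%). At 8-fold they were 372 higher and 21 lower, and at 32-fold 110 higher and 1 lower. The 4-fold counts depended on how low values were treated. They were 507 higher and 88 lower with a pseudocount of 10, and the count of higher genes was 394 where 50 normalized reads were asked for in place of 10 and 1291 with no filter. Without 8-cell replicate 4 the 4-fold counts were 890 higher and 234 lower. Higher genes outnumbered lower ones at 4-fold in every alternative run.

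**Figure D1:**
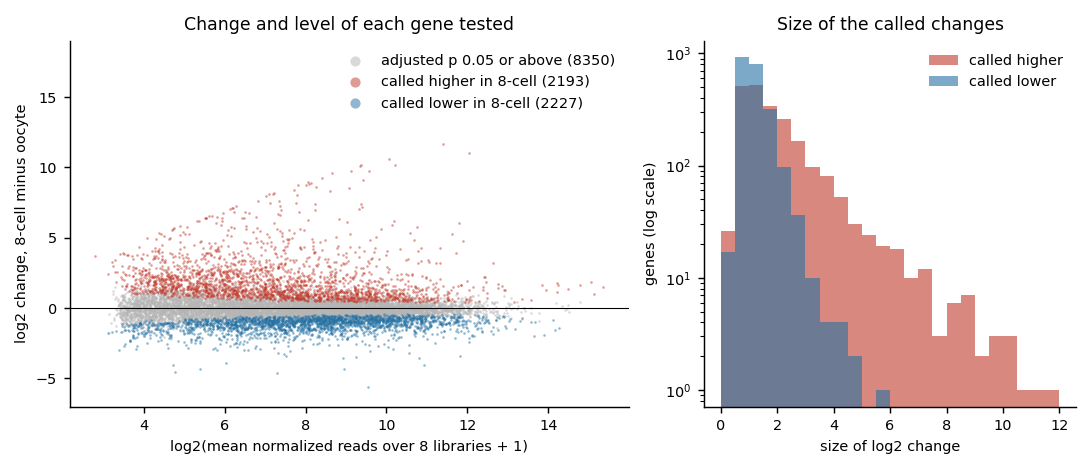
Left, each point is 1 of the 12770 genes tested, with the log2 of its mean normalized reads over the 8 libraries on the x axis and its log2 change (IVF 8-cell minus oocyte) on the y axis; right, the number of called genes (log scale) by the size of their log2 change in steps of 0.5. The 2193 genes called higher reach a log2 change of 11.63, while the 2227 called lower end at -5.62.

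Among the genes that met the naming rule, which asked for a mean of at least 50 over the 8 libraries and no overlap between the groups, the largest rise belonged to ENSBTAG00000020849. It had 2090.7, 12459.2, 6366.9 and 604.1 normalized reads in 8-cell replicates 1 to 4, and no read in any of the 4 oocyte libraries. Every 8-cell pool therefore held it, with replicate 2 highest and replicate 4 lowest, while it went undetected in oocytes at their depth. The mean was 5380.2 ± 5314 in 8-cell embryos (SD, n = 4), which is at least 10914-fold above the level that 3 reads over the oocyte group would give. The fitted log2 change of 11.63 (SE 0.75, limma adjusted p = 4.29e-06) depends on the pseudocount and is no bound. By mean normalized reads it ranked 126 among all genes in 8-cell embryos.

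ENSBTAG00000038680 had 4407.1, 17645.7, 10972.2 and 812.3 normalized reads in 8-cell replicates 1 to 4, against 2.5, 1.0, 1.8 and 0.9 in oocyte replicates 1 to 4. The 8-cell pools stood in the same order as for ENSBTAG00000020849 and none came near an oocyte library. The means were 8459 ± 7429.7 in embryo pools and 1.55 ± 0.75 in oocytes (SD, n = 4 each), a log2 change of 11.02 (SE 0.78, limma adjusted p = 8.11e-06). Only 10 reads lay behind the oocyte value. In 8-cell embryos it ranked 54 by mean normalized reads, a ranking that also follows transcript length.

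Both genes had their highest mean at the 8-cell stage among oocytes and IVF groups. Along oocytes and IVF stages ENSBTAG00000020849 averaged 0 in oocytes, 53.7 in 2-cell embryos, 5380.2 in 8-cell embryos, 2207 in morulae, 213 in blastocysts and 10.8 in cells derived from blastocysts. The 2-cell mean came from replicate 3 with 213.6, while the other 3 libraries had 0, 0.6 and 0.6. ENSBTAG00000038680 had means of 1.55, 64.7, 8459, 4342, 462 and 3.70 along the same groups, and at the 2-cell stage replicate 3 had 245.9 while the others had 2.4 to 5.3. In embryos made by somatic cell nuclear transfer (scNT) a somatic nucleus replaces that of the oocyte. There the means of both genes were highest in morulae, at 4417 and 6416, and stood at 502 and 1255 at the 8-cell stage. The scNT 8-cell means rested mostly on replicate 2, with 1415.5 and 4054.7, against 22.6 to 530.6 and 36.2 to 794 in the others. Whether the 8-cell level differed between the methods was not tested here.

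The largest fall that met the rule was that of ENSBTAG00000007392. It had 58.9, 19.6, 11.2 and 41.4 normalized reads in 8-cell replicates 1 to 4, against 1632.5, 2116.9, 879.1 and 1232 in oocyte replicates 1 to 4. All 4 oocyte libraries lay far above all 4 embryo pools. The means were 32.8 ± 21.6 in embryo pools and 1465 ± 532 in oocytes (SD, n = 4 each), which left 2.24% of the oocyte level, with a log2 change of -5.62 (SE 0.47, limma adjusted p = 2.25e-05). Its mean at the IVF 2-cell stage was 56.1 ± 7.87, nearer to the 8-cell value than to the oocyte value.

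ENSBTAG00000001154 had 6.0, 15.9, 5.1 and 26.5 normalized reads in 8-cell replicates 1 to 4, against 357.3, 318.5, 295.3 and 225.4 in oocyte replicates 1 to 4. The groups did not overlap. The means were 13.4 ± 10.0 in embryo pools and 299 ± 55.4 in oocytes (SD, n = 4 each), so that 4.47% of the oocyte level was left, and the log2 change was -4.64 (SE 0.44, limma adjusted p = 4.90e-05). Its means were 50.5 at the IVF 2-cell stage, 63.1 in IVF morulae, 52.6 in IVF blastocysts and 2.90 in cells derived from them, so the 8-cell mean was the lowest of the embryo stages.

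**Figure D2:**
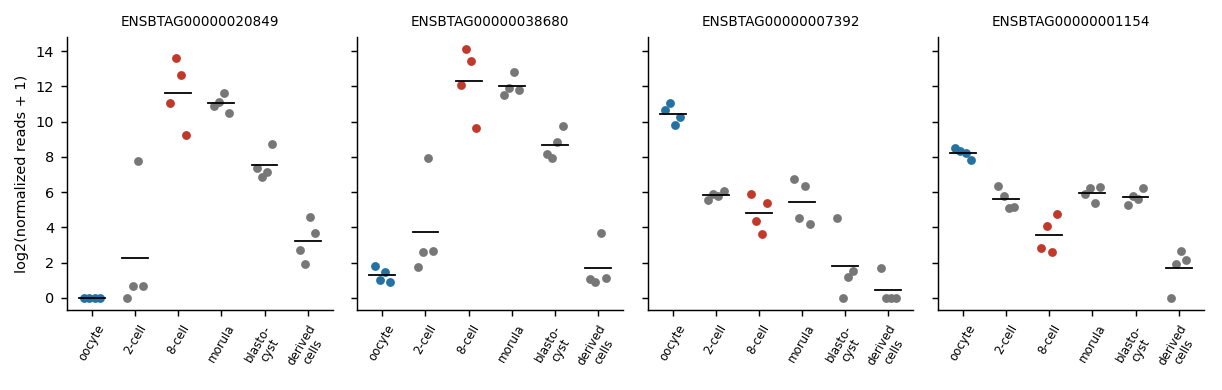
Each panel shows 1 gene, with log2(normalized reads + 1) on the y axis, the oocyte and IVF groups in order of stage on the x axis, a point per library (red for 8-cell, blue for oocyte, grey for the others) and a bar at the mean of the log2 values. The first 2 genes are at or near 0 in oocytes and above 600 normalized reads in every 8-cell library. The last 2 are lower in every 8-cell library than in any oocyte library.

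Neither RNA per cell nor RNA per embryo was measured in these pools, so each change is relative to the rest of the transcripts. Within that limit, near-complete loss was rare among transcripts with at least 50 normalized reads in oocytes. Of 9384 genes with an oocyte mean of at least 50 normalized reads, 0 had an 8-cell mean under 1% of it, 12 had one under 10%, 118 under 25% and 1036 under 50%. The reverse count was larger. Of 9906 genes with an 8-cell mean of at least 50, the oocyte mean was under 1% of it for 93, under 10% for 344, under 25% for 755 and under 50% for 1614. These counts use group means with no test. At a mean of 50 the 1% limit lies below the size of 1 read, which was 0.52 to 1.22 normalized reads in the 8 libraries.

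Genes without any read in 1 of the groups showed the same asymmetry. No read was found in any oocyte library for 1889 genes of the table, of which 188 had a read in every 8-cell library. Only 33 of the 1889 reached the level needed for testing. All 33 were called higher, with a median 8-cell mean of 122.4 normalized reads, and they had to differ, since they passed through the 8-cell libraries alone. No read was found in any 8-cell library for 829 genes, of which 19 had a read in every oocyte library, and 0 of the 829 reached the level for testing. The highest oocyte mean among them was 8.33 normalized reads.

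The level at which a gene entered the comparison shaped these counts. All 8 libraries passed the minimum for 10947 genes, the 4 embryo pools alone for 307 and the 4 oocyte libraries alone for 38. The other 1478 passed through other combinations. Among the 307, 304 were called higher, and among the 38, 34 were called lower, as their manner of entry favours. Among the 10947 present in all libraries 1534 were called higher and 2011 lower, yet 310 rose and 101 fell by at least 4-fold. Just inside the minimum, where the fourth highest value lay between 10 and 11, were 118 genes with a median mean of 10.8 normalized reads and a median log2 difference of 0.18. Just outside it, between 9 and 10, were 215 genes with 9.76 and 0.39.

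The separation of the groups was nearly complete for most called genes. All 4 8-cell libraries lay above all 4 oocyte libraries in 1857 of the 2193 genes called higher, beside 2131 (16.7%) over all genes tested. All 4 lay below in 2014 of the 2227 called lower, beside 2456 (19.2%) over all genes tested. Of the 336 genes called higher whose groups overlapped, 8-cell replicate 4 was the lowest embryo pool in 216, replicate 3 in 66, replicate 1 in 51 and replicate 2 in 3. Of the 213 called lower whose groups overlapped, the highest embryo pool was replicate 4 in 92, replicate 1 in 82, replicate 2 in 27 and replicate 3 in 12.

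Gains were more frequent among genes of low level and losses among genes of high level. These classes include the 307 genes that entered through the embryo pools alone, 304 of them called higher. How such entry was spread over the classes was not counted. Of 1773 genes with a mean over the 8 libraries of 10 to 30 normalized reads, 19.6% were called higher and 9.08% lower. Between 100 and 300, 18.9% of 2929 genes were called higher and 19.0% lower. Between 1000 and 3000, 12.4% of 1615 genes were called higher and 21.1% lower, and at 3000 or more 12.2% of 426 higher and 26.5% lower. The median log2 change of the genes called lower was -1.38, -1.08, -0.93 and -0.99 in those 4 classes, and that of the genes called higher was 2.00, 1.53, 1.01 and 1.32.

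The most abundant transcripts partly changed hands. Of the 100 genes with the highest mean normalized reads in 8-cell embryos and the 100 highest in oocytes, 63 were the same. Among the 63 shared genes 13 were called higher and 12 lower. Of the 37 found only in the 8-cell list 21 were called higher, the median log2 change of the 37 was 1.25, and their median rank was 65 in 8-cell embryos and 331 in oocytes. Of the 37 found only in the oocyte list 31 were called lower, the median was -1.31, and their median rank was 240 in 8-cell embryos and 75 in oocytes. Since the lists were drawn from the same libraries, these counts describe the turnover and support nothing further.

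A set of 3 whole-library measures were tested by exact permutation of the libraries, two-sided, where 0.0286 is the smallest p that 4 against 4 can give. When all libraries were brought to the same depth of 6413054 reads, 17355, 17542, 17342 and 16963 genes had a read in 8-cell replicates 1 to 4, against 15983, 16315, 15776 and 16241 in oocyte replicates 1 to 4. Embryo pools thus held more detected genes in every case, with means of 17300.4 ± 243 in embryo pools and 16079 ± 247 in oocytes (SD, n = 4 each, exact permutation p = 0.0286, also 0.0286 after adjustment over the 3 measures). Genes with at least 10 normalized reads numbered 13005 ± 111 in 8-cell embryos, against 12210.3 ± 212 in oocytes (exact permutation p = 0.0286). The 100 most abundant genes of a library took 16.8%, 19.3%, 15.6% and 17.1% of its normalized reads in 8-cell replicates 1 to 4, against 14.6%, 14.6%, 14.5% and 15.0% in oocyte replicates 1 to 4. Their share was higher in every embryo pool (exact permutation p = 0.0286), and leaving out any oocyte library raised the exact permutation p to 0.0571.

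The embryo pools differed among themselves far more than the oocyte libraries did. The median within-group SD of a gene, on the log2 scale, was 0.45 in 8-cell embryos and 0.24 in oocytes over all genes tested. It was 0.64 in 8-cell embryos and 0.28 in oocytes among genes called higher, and 0.45 in 8-cell embryos and 0.21 in oocytes among genes called lower. The first principal component of the tested genes held 71.7% of the variance and placed 8-cell replicates 1 to 4 at 51.8, 116.0, 71.7 and 38.6, against -67.3, -62.5, -77.0 and -71.3 for oocyte replicates 1 to 4. Replicate 2 lay furthest from the oocytes and replicate 4 nearest to them.

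The same order of pools appeared in the share of the reads. Genes called higher took 19.3%, 31.8%, 21.1% and 17.7% of the normalized reads of 8-cell replicates 1 to 4, against 8.24%, 8.71%, 7.71% and 8.08% in oocyte replicates 1 to 4. Genes called lower took 15.9%, 10.1%, 14.0% and 16.8% in the 8-cell replicates, against 28.8%, 28.5%, 29.1% and 28.3% in the oocytes. Replicate 2 was therefore the pool with the largest share of gained transcripts and the smallest share of lost ones, and replicate 4 was the opposite on both counts. The genes were chosen on these libraries, so the gap between the groups is a description with no test.

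Gene by gene, replicate 2 was the highest embryo pool in 531 of the 796 genes that rose at least 4-fold (66.7%) and the lowest in 15. Replicate 4 was the lowest in 421 (52.9%) but also the highest in 172 (21.6%). Of the 1288 genes that fell at least 2-fold, replicate 2 was the lowest pool in 874 (67.9%), and replicate 4 the highest in 661 (51.3%). The sources used here do not state how many cells each pool held or the hour of collection.

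**Figure D3:**
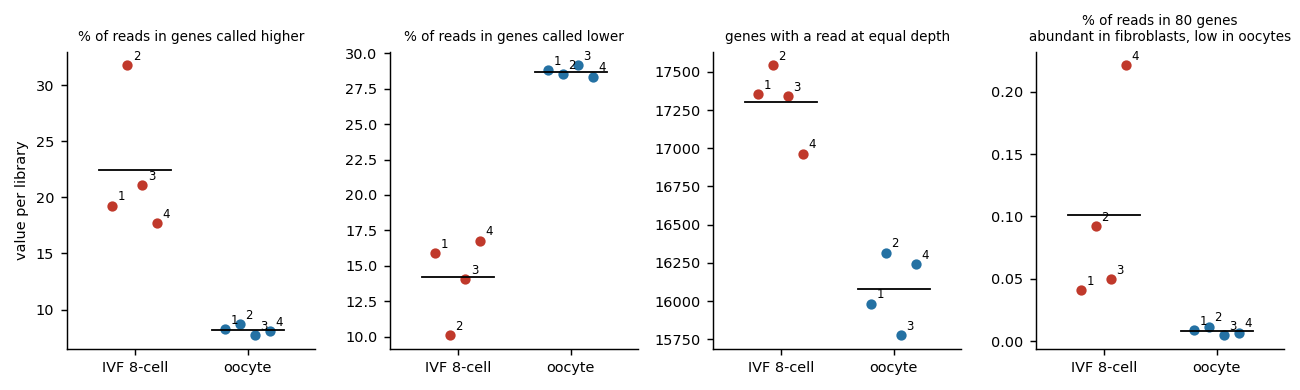
Each point is a library, numbered by replicate, with a bar at the group mean; the panels give the percent of normalized reads in genes called higher, the percent in genes called lower, the number of genes with a read at equal depth, and the percent of normalized reads in 80 genes that are abundant in fibroblasts but low in oocytes. The y axes do not start at 0. The 4 embryo pools are spread widely in the first, second and last panels, where the oocyte libraries lie close together.

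The genes that rose at least 4-fold were split by their level in fibroblasts, somatic cells from ear biopsies whose libraries took no part in the comparison. The limits of 10 and 100 were chosen after values had been seen. Of the 796 genes, 124 had a fibroblast mean under 10 normalized reads, 152 one between 10 and 100 and 520 one of at least 100. Without fibroblast replicate 3 the numbers were 154, 148 and 494. The 124 genes poorly represented in fibroblasts had the larger changes, with a median log2 change of 5.40 (5.73 with the genes absent from oocytes at their bound), against 2.73 for the 152 and 2.79 for the 520. The 124 became 51 with a minimum of 50 normalized reads and 422 with no filter.

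Over all genes tested, those poor in fibroblasts were more often lost than gained. With a fibroblast mean under 10, 9.70% of 1815 genes were called higher in 8-cell embryos and 25.7% lower. Between 10 and 100, 12.4% of 2940 genes were higher and 18.5% lower. At 100 or more, 20.6% of 8015 genes were higher and 15.2% lower. Without fibroblast replicate 3 the lowest class had 10.6% of 2187 genes higher and 24.1% lower, the middle class 12.9% of 2876 higher and 18.3% lower, and the highest class 20.6% of 7707 higher and 15.2% lower.

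The 124 genes had a median level, as log2(normalized reads + 1), of 6.63, 7.61, 7.34 and 5.67 in 8-cell replicates 1 to 4, against 0.68, 0.79, 0.68 and 0.93 in oocyte replicates 1 to 4. They were nearly absent from oocytes, and replicate 4 was the lowest embryo pool in 79 of them. Along oocytes and IVF stages the group means of this median were 0.77 in oocytes, 1.90 in 2-cell embryos, 6.81 in 8-cell embryos, 5.18 in morulae, 2.85 in blastocysts and 0.27 in the derived cells. The 2-cell value was 4.32 in replicate 3 and 0.58 to 1.54 in the other libraries. Of the 124 genes 96 (77.4%) had their highest mean in 8-cell embryos among these 6 groups. Morulae held the highest mean of 14, blastocysts of 13 and derived cells of 1. With the 154 genes obtained without fibroblast replicate 3, 108 (70.1%) were highest at the 8-cell stage.

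The 520 genes also present in fibroblasts followed another course. Their median level was 7.08 to 8.18 in the 8-cell libraries, against 3.86 to 4.63 in oocytes, so most were already detected in oocytes. The group means were 4.27 in oocytes, 5.33 in 2-cell embryos, 7.41 in 8-cell embryos, 7.73 in morulae, 8.09 in blastocysts and 8.39 in the derived cells. Of these genes 97 (18.7%) were highest in 8-cell embryos and 214 (41.2%) in derived cells, with 63 in morulae and 146 in blastocysts. The 152 genes of the middle class had group means of 2.72, 3.57, 5.68, 6.31, 6.56 and 5.91 along the same groups, and 38 were highest at the 8-cell stage. Without IVF 2-cell replicate 3 the 2-cell means were 1.09 for the 124 genes, 2.93 for the 152 and 4.52 for the 520. All these genes were chosen for a high level at the 8-cell stage, so no count of those highest there is a test.

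In scNT embryos the 124 genes had group means of 1.04 in 2-cell embryos, 4.48 in 8-cell embryos, 5.42 in morulae, 2.05 in blastocysts and 0 in the derived cells. The 520 genes had 4.73, 6.09, 8.14, 7.92 and 8.38 at those stages. The scNT 8-cell mean of the 124 genes lay below the IVF 8-cell mean and the scNT morula mean above the IVF morula mean, differences that were not tested here.

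Genes that fell at least 2-fold had later levels that differed with their level in fibroblasts, a description with no test. All 1288 stood at a median level of 6.63 ± 0.39 in 8-cell pools against 8.09 ± 0.052 in oocyte libraries (SD, n = 4 each), and 7.41 ± 0.31 at the IVF 2-cell stage (7.55 without its replicate 3). The 362 with a fibroblast mean under 10 had group means of 6.76 in oocytes, 5.97 in 2-cell embryos, 5.17 in 8-cell embryos, 4.64 in morulae, 2.60 in blastocysts and 1.05 in the derived cells. The 572 with a fibroblast mean of at least 100 had 9.22, 8.58, 7.80, 7.94, 8.11 and 8.09 along the same groups. Without IVF 2-cell replicate 3 the 2-cell means were 6.22 and 8.69. Without fibroblast replicate 3 these classes held 398 and 541 genes, with 5.21 and 7.84 in 8-cell embryos, 6.78 and 9.25 in oocytes, and 1.19 and 8.12 in derived cells. Among the 1288 genes 26 had their lowest mean in 2-cell embryos, 312 in 8-cell embryos, 137 in morulae, 311 in blastocysts and 502 in derived cells.

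**Figure D4:**
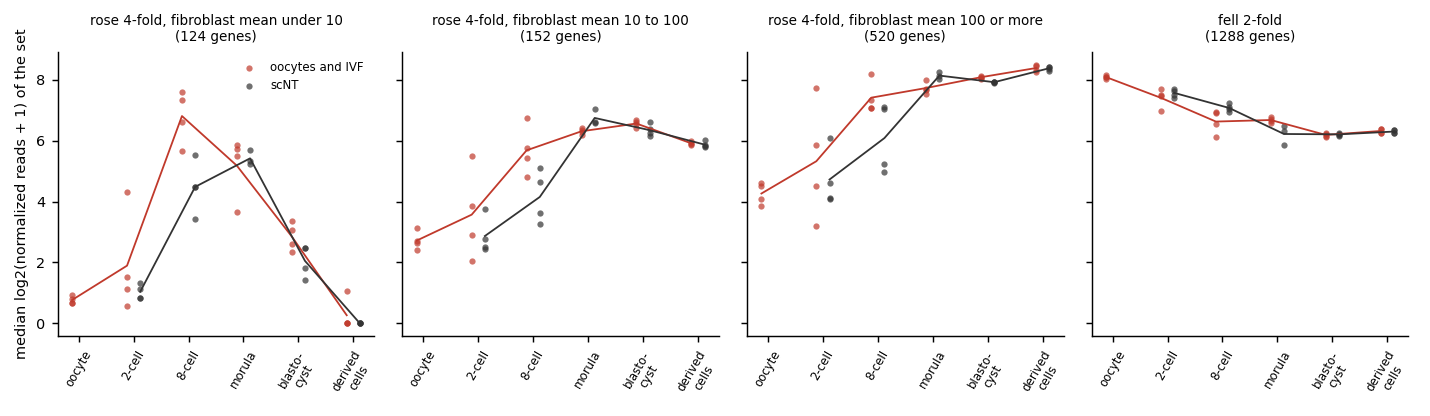
The y axis gives the median log2(normalized reads + 1) of a gene set in each library (points) and the x axis the stage, with lines through the group means, in red for oocytes and IVF groups and in dark grey for scNT groups; the first 3 panels are the 124, 152 and 520 genes that rose at least 4-fold and the last the 1288 that fell at least 2-fold. The 124 genes peak at the 8-cell stage in IVF embryos and return towards 0 in derived cells, while the 520 stay high.

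Transcripts abundant in fibroblasts were looked at separately, because the embryos grew on a layer of somatic cells and no marker of such cells could be matched. There were 80 genes that had a fibroblast mean of at least 1000 normalized reads and an oocyte mean under 20. They took 0.0406%, 0.0920%, 0.0497% and 0.221% of the normalized reads in 8-cell replicates 1 to 4, against 0.00858%, 0.0116%, 0.00466% and 0.00666% in oocyte replicates 1 to 4, where the choice itself keeps them low. Every embryo pool was above every oocyte library, and replicate 4 held the most. In fibroblast replicates 1 to 4 they took 4.91%, 5.84%, 0.944% and 6.06%. Their share was 0.0646% to 0.120% in IVF morulae, 0.109% to 0.128% in IVF blastocysts and 0.567% to 1.15% in the cells derived from them. Chosen without fibroblast replicate 3 the list had 101 genes, which took 0.0495% to 0.245% in 8-cell embryos, against 0.00607% to 0.0147% in oocytes. Of the 80 genes 52 were tested, and 45 (86.5%) were called higher in 8-cell embryos and 0 lower, beside 17.2% called higher over all genes. Of the 52, 50 reached 10 normalized reads in all 4 embryo pools and 10 did so in all 4 oocyte libraries. The choice of a low oocyte mean, together with the minimum for testing, favours calls in this direction, so nothing is read from that count. Their part in the results was not tested.

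Replicate 4 was thus the pool with the most reads in the 80 genes and the lowest level of the 124 genes poor in fibroblasts. Among the 520 risen genes also present in fibroblasts, it was the lowest pool in 253 and the highest in 150. Its median level for the 520 was 7.07, against 7.08 to 8.18 in 8-cell replicates 1 to 3. The second principal component held 12.2% of the variance and set replicate 4 apart from the other pools. Replicate 4 lay there at 68.5, against -30.7 to 5.22 for 8-cell replicates 1 to 3. Of the 100 genes leading that component towards replicate 4, 89 had a fibroblast mean of at least 100 normalized reads, beside 62.8% of all genes tested. Without replicate 4, limma called 5553 genes, of which 4254 were among the 4420, and the 124 became 142. The same 80 genes took 0.00325%, 0.0142%, 0.291% and 0.0463% of the normalized reads in IVF 2-cell replicates 1 to 4, so that 2-cell replicate 3, the library with early reads of ENSBTAG00000020849 and ENSBTAG00000038680, was also the one with the most reads in them. In scNT 8-cell embryos replicate 4 also held the most reads in the 80 genes (0.176% against 0.0193% to 0.147%). It had the lowest median level there for the 124 genes (3.43 against 4.47 to 5.54). Among scNT 2-cell libraries replicate 3 held the most reads in the 80 genes (0.0676% against 0.0171% to 0.0293%). At later stages the highest library had different numbers in IVF and scNT groups. Whether libraries of the same number shared a batch was not tested.

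Whether the genes moved alike in other libraries was asked in comparisons that share no library with IVF 8-cell embryos or oocytes. Between IVF morulae and IVF 2-cell embryos, stages on either side of the 8-cell embryo, limma called 8026 of 13285 genes (60.4%), 3551 higher in morulae (26.7%) and 4475 lower (33.7%). Of 2126 genes called higher in 8-cell embryos and tested in both comparisons, 1208 (56.8%) were also higher in morulae and 54 lower, and their median log2 change was 1.33, beside -0.22 over all genes tested there. The 1208 were 34.0% of the genes higher in morulae. Of 2160 genes called lower in 8-cell embryos, 1303 (60.3%) were lower in morulae and 154 higher, at a median of -0.95, and the 1303 were 29.1% of the genes lower there. Of 8133 genes not called, 18.7% were higher in morulae and 38.3% lower. Without IVF 2-cell replicate 3, 1496 (70.4%) of the 2126 were higher and 102 lower, and 1548 (71.7%) of the 2160 were lower and 181 higher, beside 32.6% higher and 41.7% lower over all genes tested. Genes under the minimum in every 2-cell library entered through the morulae alone, which favours calls higher there. Those under it in every morula library entered through the 2-cell libraries alone, which favours calls lower. How many did so was not counted, so these counts are a description.

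None of the genes that rose at least 4-fold was called the opposite way between IVF morulae and 2-cell embryos. Of the 796 genes 738 were tested, 459 (62.2%) were higher in morulae and 0 lower, and the median log2 change was 2.48. By class, 58 of 86 genes poor in fibroblasts were higher, with a median of 3.23, 109 of 141 of the middle class with a median of 2.78, and 292 of 511 of those at 100 or more with a median of 2.31. The 124 genes poor in fibroblasts had a median of 0.5, 1.9, 19.05 and 1.2 normalized reads in IVF 2-cell replicates 1 to 4. A gene under the minimum in every 2-cell library could enter only through the morulae. Such entry favours calls higher in morulae, so these counts are a description and no independent support. Without IVF 2-cell replicate 3 the number of the 796 called higher was 571 and the number called lower 0, and by class the numbers higher were 68, 124 and 379. The number of all genes called was then 9881.

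In scNT embryos the comparison of morulae with 2-cell embryos called 10678 of 13470 genes (79.3%), 4957 higher (36.8%) and 5721 lower (42.5%) in morulae (limma, n = 3 and 4). Of 2100 genes called higher in IVF 8-cell embryos, 1561 (74.3%) were higher in scNT morulae and 131 lower, and their median log2 change was 2.01, beside -0.15 over all genes tested there. Of 2192 genes called lower in IVF 8-cell embryos, 1535 (70.0%) were lower in scNT morulae and 257 higher, with a median of -1.46. The 1561 and 1535 genes were 31.5% of the genes higher in scNT morulae and 26.8% of those lower. Of the 717 tested among the 796 genes, 590 (82.3%) were higher and 4 lower. Genes under the minimum in every scNT 2-cell library likewise entered through the morulae alone, which favours calls higher there. Those under it in every scNT morula library entered through the 2-cell libraries alone, which favours calls lower.

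**Figure D5:**
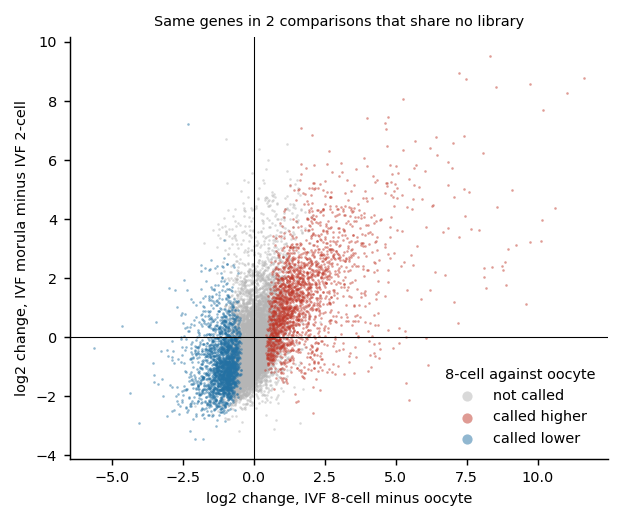
Each point is 1 of the 12419 genes tested in both comparisons, with the log2 change of IVF 8-cell embryos minus oocytes on the x axis and that of IVF morulae minus IVF 2-cell embryos on the y axis, coloured by the call in the first (red higher, blue lower, grey not called). Most red points lie above 0 on the y axis, where the median of the genes called higher is 1.33, and most blue points lie below it, at a median of -0.95.

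The remaining 8350 genes did not pass the threshold, which does not show that they were alike in the 2 groups. For 5005 of them (59.9%) the 95% confidence interval of the log2 change lay within 2-fold in either direction. For the other 3345 it reached past 2-fold, so that a change of that size could not be judged with these pools.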

How the data were processed

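Per the labels' protocols, the fraction of RNA above 200 nt went through the low-input Ovation SoLo kit with several rounds of PCR. Molecular identifiers are not mentioned, so depth speaks for counting error only. Tools named in the submitters' processing notes are STAR, DESeq2, FastQC and MultiQC, with build UMD3.1. The sources used here do not give their versions, the annotation or the strand setting. The signal deposited by the authors was 1 normalized count of reads per gene and library, to 1 decimal. In the 8 libraries at least 99.9% of values above 0 were whole multiples of 1 step within 0.05, so whole reads were recovered. The deposited values were tested as log2(value + 1) with limma 3.58.1 (trend and robust options, R 4.3.3), two-sided, taking only the groups compared, without a replicate block. Genes needed 10 normalized reads in at least 4 libraries (3 for the scNT comparison), and a call meant a p under 0.05 after Benjamini-Hochberg adjustment. The log2 scale with this pseudocount shrinks the change of low genes. The recovered reads were also tested with edgeR 4.0.16 and DESeq2 1.42.0. Other alternatives changed the scaling, pseudocount, filter, weights and libraries.

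Named genes were called genes with 50 or more normalized reads on average whose groups did not overlap, a rule met by 1354 higher and 1744 lower genes, taken in order of the size of the change and limited to 2 identifiers per direction. The reference table (assembly ARS-UCD2.0) matched 0 identifiers, so the lists of named genes and markers could not be used and no sequence is shown. Genes, groups and tests were chosen with earlier results of these data known. All replicate pairs within the 2 groups differed by more than sampling noise (lowest chi-square per degree of freedom 14.8). The fit of 8-cell embryos against oocytes was tested on simulated data before use.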

Additional observations from a re-analysis of the deposited data

Results flagged for a closer look

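In 7 of 42 groups of 4 libraries examined, the highest or lowest library stood apart from the others by most of the group's range. Independent, normally distributed values do so in about 1 in 20 groups. The measures here overlap and include raw reads near 0, so that rate does not apply to them. Among IVF 2-cell embryos replicate 3 did so 3 times, with 213.6 normalized reads of ENSBTAG00000020849, 245.9 of ENSBTAG00000038680 and 0.291% of its normalized reads in the 80 genes that are abundant in fibroblasts but low in oocytes. Fibroblast replicate 3 had 85021 normalized reads of ENSBTAG00000007392, where the other fibroblast libraries had 0, 0 and 38.4. Fibroblast replicate 2 had 0.7 normalized reads of ENSBTAG00000020849 and the others 0, which is a single read. IVF 8-cell replicate 2 had 13170 genes at 10 or more normalized reads, where the other 8-cell libraries had 12940 to 12961. In oocyte replicate 4 the 100 most abundant genes took 15.0% of the normalized reads, against 14.5% to 14.6% in the other oocyte libraries. The causes were not tested.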

How the results depend on the processing

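The number of genes called between IVF 8-cell embryos and oocytes was 3443 to 5744 over 12 alternatives and 3013 to 5553 when each library was left out in turn. In all of them 0 genes of the 4420 were called in the opposite direction, and the share higher ran from 42.7% to 58.2%. It was 4297, 4450 and 4466 with equal library totals, median-of-ratios and TMM factors, 4531 with edgeR, 5149 with DESeq2, 5117 with no filter and 3443 with a minimum of 50. Leaving out a library gave 1600 to 2673 genes higher and 1413 to 2880 lower, the lowest without oocyte replicate 1, and 629 to 890 higher and 106 to 234 lower by at least 4-fold. For IVF morulae against 2-cell embryos it gave 6671 to 9881 genes and for scNT embryos 10153 to 10761. With the replicate number as a block 4268 genes were called, 4006 of them among the 4420, and 7799 and 9797 in the morula comparisons, where the scNT fit dropped 2-cell replicate 1. Same-numbered 8-cell and oocyte libraries deviated together with r of 0.10, 0.05, 0.31 and -0.15, and not every library matched its own number best. With 4 libraries per group these r cannot settle whether the numbers pair the samples, and the main fit took no pairs. Genes at few reads are limited by depth.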
